A study of Mus musculus with 20 samples.

Results

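The multiciliation regulators described here are 9 genes taken by name, Gmnc, Mcidas, Ccno, Cdc20b, Foxj1, Myb, Trp73, Rfx2 and Rfx3, out of 45705 genes in the table. All 9 were found. A multiciliated cell builds many centrioles and then grows a motile cilium from each one. In vertebrates Gmnc (GemC1) starts this programme. Mcidas (multicilin) acts through E2F factors to switch on genes of centriole amplification. Trp73, Myb, Foxj1 and the RFX factors act with or after them, and Foxj1, Rfx2 and Rfx3 turn on the genes of the motile cilium. Ccno (cyclin O) and Cdc20b (a relative of Cdc20) are not transcription factors; they lie beside Mcidas in the genome and take part in making centrioles. In the postnatal subventricular zone the multiciliated cells are the ependymal cells that line the ventricle.

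The samples were 5 populations of cells from the tissue around the ventricles of P5 Swiss Webster mice, neural stem cells (NSC) and 4 sorted fractions of progenitors. The fraction BNAP/GRP1 joins bipotential neuronal-astrocytic and glial-restricted progenitors, GRP2/MP3 joins glial-restricted and multipotential ones, GRP3 is glial-restricted, and PFMP is a multipotential fraction that responds to PDGF and FGF. Pups of a litter, males and females, were pooled, and the live cells were separated by FACS with antibodies to CD133, CD15 (LeX), CD140a and NG2. No population carried a transgene or received a treatment. Each population had 4 libraries, 1 in each of batches 1 to 4 in the labels, so NSC 3 is the NSC library of batch 3. Levels are the authors' RPKM, which are scaled to gene length and library size. Tests used limma on log2(RPKM + 1) with p-values adjusted by the Benjamini-Hochberg method over 27614 genes that reached 1 RPKM in at least 4 libraries. All 9 regulators passed this filter, some of them through NSC and libraries of batch 4 alone. In RNA from a sorted population, fewer expressing cells and less RNA per cell cannot be told apart.

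Some libraries stood apart from their labels. BNAP/GRP1 4 had the lowest relative depth (0.0395 of that of BNAP/GRP1 1), and its median gene lay at 8.30 RPKM where the other 19 libraries had medians of 0 to 2.02. In all 5 libraries of batch 3 the airway gene Scgb1a1 lay between 838.8 and 964.8 RPKM, and in the other 15 libraries the 9 airway and lung genes checked summed to at most 105.6 RPKM. The NSC libraries held the astroglial and stem cell genes Fabp7 (227.7 to 4555 RPKM) and Sox2 (19.8 to 182.5 RPKM). Progenitor libraries held them as well (140.4 to 14732 and 0.468 to 230.7 RPKM). Other such markers in NSC were Slc1a3 (7.18 to 577.8 RPKM), Gfap (0 to 222.9), Thbs4 (0.484 to 18.1) and Nes (0.87 to 14.9). Hes5 (1.32 to 39.8), Vcam1 (1.76 to 26.5) and Aldh1l1 (1.64 to 29.9) were the rest of the list. None of the 9 markers passed the test against the progenitors (1 of 9 at an unadjusted p under 0.05, and 1 of 9 called with the replicate block described below). Over all 27614 genes the last 2 counts were 1898 and 1205, in either direction. NSC also held markers of ependymal cells, and these are set out beside the regulators.

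Ccno, Mcidas and Cdc20b lie next to each other on the plus strand of chromosome 13 in GRCm38 (GENCODE vM21). Ccno spans chr13:112987802-112990777, Mcidas chr13:112993845-113000394 and Cdc20b chr13:113035111-113091195. The other regulators are on other chromosomes and on the minus strand: Foxj1 at chr11:116330704-116335399, Myb at chr10:21124935-21160984, Trp73 at chr4:154056253-154140208, Rfx2 at chr17:56775897-56831013, Rfx3 at chr19:27761721-28011166 and Gmnc at chr16:26913553-26991652. RFX factors bind the X-box, of which GTTGCC is a half-site. In the 250 bases before the gene start (RefSeq, GRCm38.p6, found for 8 of the 9, not for Foxj1) this half-site was present in Mcidas, Ccno and Rfx2. It is present on either strand in 11.8% of the same windows of 27025 genes. The 100 bases around it are shown for these 3 regulators because Mcidas and Ccno are neighbours and Rfx2 is itself an RFX factor, each read 5′ to 3′ on the strand of its gene with GTTGCC in capitals.
Mcidas, chr13:112993626-112993725: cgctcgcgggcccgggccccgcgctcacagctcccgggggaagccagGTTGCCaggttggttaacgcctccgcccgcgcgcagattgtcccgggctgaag
Ccno, chr13:112987552-112987651: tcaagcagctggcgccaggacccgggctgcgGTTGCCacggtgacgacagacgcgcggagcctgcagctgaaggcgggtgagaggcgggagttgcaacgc
Rfx2, chr17:56831072-56831171: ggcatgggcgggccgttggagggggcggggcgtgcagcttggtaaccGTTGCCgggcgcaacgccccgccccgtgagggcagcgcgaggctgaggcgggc
Counted from the gene start, the half-site began at position -195 in Mcidas, -219 in Ccno and -116 in Rfx2. In Rfx2 it overlapped a match to the MYB core AACNGTT, which began at position -120 and which 4.27% of all windows hold. The E2F site TTNGCGC was present in the windows of Myb and Trp73 (5.96% of all windows, all motifs searched on both strands). The forkhead site TGTTTAC was in none of the 8 (3.54% of all windows). Such a match is a string of letters and not evidence of binding.

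The libraries of the NSC fraction held RNA of all 9 regulators, and those of the progenitor fractions held little of most of them. Of the 144 values of the 9 genes in the 16 progenitor libraries, 103 were under 1 RPKM and 25 were listed at 0. Such values were common there: 13.2% (GRP3 4) to 56.0% (GRP2/MP3 3) of all genes were at 0 in a progenitor library. The median gene lay at 0 to 0.977 RPKM in all progenitor libraries but BNAP/GRP1 4 and GRP3 4. In NSC against the mean of the 4 progenitors, 6 of the 9 were higher in NSC: Foxj1, Ccno, Myb, Mcidas, Cdc20b and Rfx2. Of all genes tested 1.96% were called higher in NSC in the same comparison. The median log2 difference was 2.31 over the 9 regulators and -0.07 over all genes. Trp73, Rfx3 and Gmnc did not pass (adjusted p = 0.12, 0.699 and 1). A fit that also carried the batch number (the replicate block) called 7 (4.14% of all genes), with Trp73 added (adjusted p = 0.0135). A fit without batch 3 and BNAP/GRP1 4 called 7 as well (4.06% of all genes).

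**Figure D1:**
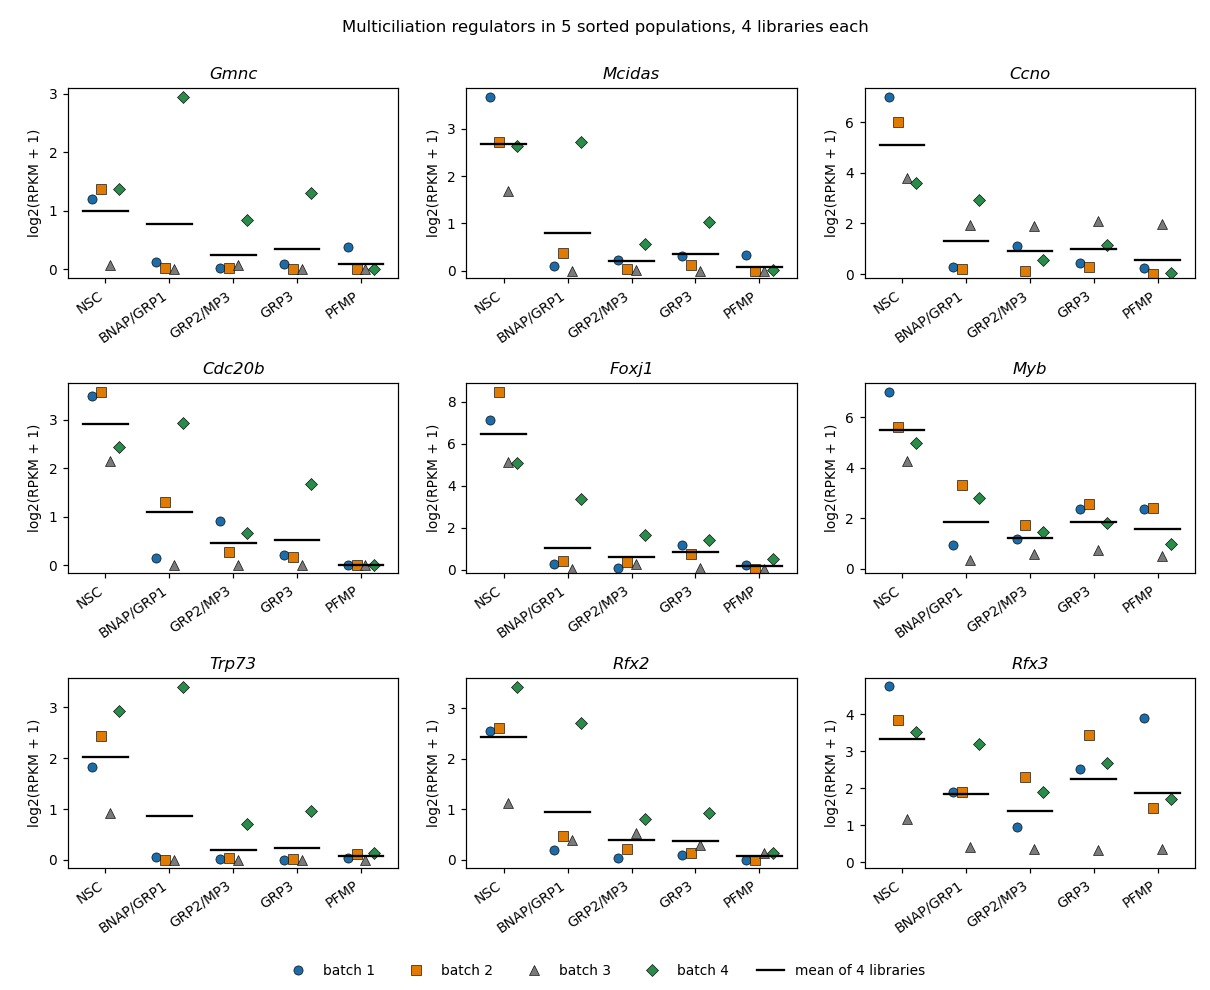
Level of each of the 9 regulators in each library, as log2(RPKM + 1) on the vertical axis, by population on the horizontal axis; symbols mark the 4 batches and lines the means of 4 libraries. Foxj1, Ccno and Myb are higher in every NSC library than in any progenitor library, and the diamond of BNAP/GRP1 4 stands at 5.55 to 9.61 RPKM for every gene.

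Foxj1, the forkhead factor that turns on motile cilium genes, was the highest of the 9 in NSC. It lay at 141.3, 352.3, 34.3 and 33.1 RPKM in NSC 1 to 4. In the progenitors it lay between 0.00416 and 9.42 RPKM, with a median of 0.258. The highest progenitor value was in BNAP/GRP1 4, and the next was 2.19 in GRP2/MP3 4, so the ranges of NSC and the progenitors did not overlap. The same held for Ccno and Myb, and for 0.587% of the genes tested. The log2 fold change against NSC was -5.45 ± 0.79 (SE, n = 4 libraries each) in BNAP/GRP1 and -5.87 ± 0.79 in GRP2/MP3. It was -5.61 ± 0.79 in the GRP3 fraction and -6.27 ± 0.79 in PFMP. Each of these passed the test (adjusted p = 0.000828, 0.000284, 0.000389 and 0.000109). Foxj1 was never at 0 in a progenitor, and reads recovered from the RPKM steps ran from 1 to 136 there, against about 1122 to 27648 in NSC. They counted as whole in 19 of 20 libraries, within 0.02 at low numbers and a wider margin at high ones. At 27648 the margin was too wide for any value to fail. The exception was NSC 4, at 1121.78.

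Mcidas, the coiled-coil activator that starts centriole amplification, was lower in level. It measured 11.7, 5.62, 2.22 and 5.19 RPKM in NSC 1 to 4, from 351, 391, 310 and 156 recovered reads. In BNAP/GRP1 1 to 4 it measured 0.0681, 0.301, 0 and 5.58 RPKM. In the other 12 progenitor libraries it lay between 0 and 1.05 RPKM. The last BNAP/GRP1 library thus lay inside the NSC range and every other progenitor library below it. Mcidas fell in GRP2/MP3 (-2.47 ± 0.57, adjusted p = 0.032) and PFMP (-2.59 ± 0.57, adjusted p = 0.0218). Its difference was -1.88 ± 0.57 in BNAP/GRP1 (adjusted p = 0.234) and -2.31 ± 0.57 in GRP3 (adjusted p = 0.0545). Both passed once batch was in the fit (adjusted p = 0.0484 and 0.00929). The call in GRP2/MP3 was lost in 14 of 35 alternatives, among them those without any 1 of its 4 libraries, and the call in PFMP in 10 of 35, again among them those without any 1 of its 4 libraries.

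Gmnc, which stands first in the programme, was the lowest of the 9 in NSC. Its NSC values were 1.30, 1.58, 0.0510 and 1.59 RPKM, from 71, 200, 13 and 87 recovered reads, and NSC 3 stood far under the others. In the progenitors it ran from 0 to 6.71 RPKM, with a median of 0.0125. BNAP/GRP1 4 was above every NSC library, GRP3 4 (1.45 RPKM) was above NSC 1 and NSC 3, and the other 14 lay under 1 RPKM. The log2 fold changes lay between -0.91 in PFMP and -0.23 in BNAP/GRP1, and none passed (adjusted p of 0.907 or more). On the scale of log2(RPKM + 1) a gene at this level can fall by little, since its mean in NSC was 1.00.

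Trp73, the p53 relative that acts with Gmnc, measured 2.53, 4.40, 0.887 and 6.63 RPKM in NSC 1 to 4. It was listed at 0 in 6 of 16 progenitor libraries and lay under 1 RPKM in 15. The exception was BNAP/GRP1 4 at 9.61 RPKM, above all NSC libraries. Its differences from NSC ran from -1.95 ± 0.64 in PFMP to -1.16 ± 0.64 in BNAP/GRP1 and did not pass (adjusted p = 0.257 to 0.866). With the replicate block Trp73 passed in GRP2/MP3 (adjusted p = 0.0479) and PFMP (adjusted p = 0.0353). Trp73 shared 280 exon bases with the antisense gene Trp73os. Whether the reads were counted by strand is not given in the sources used here.

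Ccno, the cyclin that lies beside Mcidas and is needed for centriole numbers in multiciliated cells, measured 125.3, 63.5, 12.7 and 10.9 RPKM in NSC 1 to 4. Among progenitors it lay between 0 and 6.53 RPKM, all below the lowest NSC library. In batch 3 its 4 progenitor libraries held 2.69 to 3.25 RPKM, above all progenitor libraries of the other batches but BNAP/GRP1 4. The part that the airway RNA of batch 3 had in these values was not tested. Ccno fell in each progenitor, with log2 fold changes of -3.76 ± 0.82, -4.17 ± 0.82, -4.10 ± 0.82 and -4.52 ± 0.82 in the order used for Foxj1 (adjusted p = 0.0283, 0.00918, 0.0116 and 0.00423). These calls were lost in 10, 7, 8 and 3 of 36 alternatives.

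Cdc20b, the host gene of the miR-449 hairpins, measured 10.2, 10.9, 3.44 and 4.42 RPKM in NSC 1 to 4. It was listed at 0 in all 4 PFMP libraries, where 3 reads would have been 0.0644 to 0.612 RPKM, and in 7 of 16 progenitor libraries. BNAP/GRP1 4 (6.69 RPKM, from 11 recovered reads) lay within the NSC range, and the next highest was GRP3 4 at 2.18 RPKM. It passed in PFMP (-2.91 ± 0.62, adjusted p = 0.0155), a value that depends on the pseudocount since PFMP was at 0 and a call that was lost in 7 of 35 alternatives, among them those without NSC 1, NSC 2, PFMP 1 or PFMP 2. In the other 3 it did not pass (-1.81 to -2.45, adjusted p = 0.389, 0.06 and 0.0724), though GRP2/MP3 and GRP3 passed with the replicate block (adjusted p = 0.0114 and 0.015).

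Myb, a factor of proliferating progenitors that multiciliated cells also use, measured 127.5, 47.9, 18.4 and 30.5 RPKM in NSC 1 to 4. In the progenitors it lay between 0.293 and 8.94 RPKM, with a median of 2.05, and was at 0 in none. All 16 libraries were below the lowest NSC library, and BNAP/GRP1 2 was the highest of them. Myb fell in each progenitor, with log2 fold changes of -3.61 ± 0.74, -4.23 ± 0.74, -3.60 ± 0.74 and -3.90 ± 0.74 in the same order (adjusted p = 0.0178, 0.00327, 0.0141 and 0.00608), and the calls were lost in 9, 2, 9 and 5 of 36 alternatives. It shared 559 of its 8933 exon bases with the antisense gene Gm26577.

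The RFX factors, which bind the X-box, were the last of the set. Rfx2 measured 4.88, 5.09, 1.20 and 9.80 RPKM in NSC 1 to 4 and lay under 1 RPKM in 15 of the 16 progenitor libraries, all but BNAP/GRP1 4 (5.55 RPKM). Rfx3, which also serves primary cilia, measured 26.0, 13.3, 1.24 and 10.5 RPKM in NSC 1 to 4. In the progenitors Rfx3 lay between 0.247 and 13.8 RPKM, with a median of 2.72, and PFMP 1 was above 3 of the 4 NSC libraries. Rfx2 passed in PFMP (-2.36 ± 0.57, adjusted p = 0.0429), and with the replicate block also in GRP2/MP3 and GRP3 (adjusted p = 0.0134 and 0.0135). The call of Rfx2 in PFMP was lost in 20 of 35 alternatives, among them those without any 1 library of GRP2/MP3, GRP3 or PFMP. Rfx3 passed in none (-1.08 ± 0.89 to -1.94 ± 0.89, adjusted p = 0.785 or more, and 0.0842 or more with the replicate block). Both were nevertheless below the NSC library of their own batch in 16 of 16 pairings, which was so for 3.28% of the genes tested.

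The progenitor comparisons together called 6 of 9 regulators for PFMP, 4 for GRP2/MP3 and 3 each for GRP3 and BNAP/GRP1, all lower than in NSC. Over all genes, in the order used for Foxj1, the same comparisons called 0.76%, 1.12%, 1.04% and 1.14% lower. Foxj1, Ccno and Myb were called in all 4, and these comparisons share the NSC libraries. The median log2 fold change of the 9 was -1.81, -2.45, -2.31 and -2.59, against 0.38, -0.08, 0.05 and -0.20 over all genes. With quantile normalization, which brought the medians of all genes to between 0.04 and 0.09, 7 of 9 were called in each (1.59%, 1.56%, 1.62% and 1.33% of all genes) and 8 of 9 against the mean of the progenitors (2.76%). With the replicate block the counts were 4, 7, 6 and 7 (2.02%, 2.91%, 2.33% and 2.61% of all genes). Without batch 3 and BNAP/GRP1 4, libraries left out after their values were seen, they were 6, 7, 7 and 7 (2.08%, 2.58%, 2.14% and 2.8% of all genes).

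Single libraries moved these counts. Without BNAP/GRP1 4 alone, 7 of 9 regulators were called in every progenitor (1.5% to 1.89% of all genes). Without NSC 1 or without NSC 2, the libraries of the highest Ccno and Foxj1, 3 were called for PFMP, 2 for GRP2/MP3 and 1 each for GRP3 and BNAP/GRP1 (0.319% to 0.775% of all genes), and 4 of 9 against the mean of the progenitors (1.19% and 1% of all genes). Without BNAP/GRP1 1 or 3 the count there was 1 (0.377% and 0.373% of all genes), without GRP2/MP3 2 it was 2 (0.659%), and without PFMP 1 or 2 it was 3 (0.818% and 0.779%). Without NSC 3 the count in GRP3 was 6 (1.79% of all genes). Foxj1 was called in all of these fits. With a whole batch out, no regulator was called for BNAP/GRP1 without batch 1, and none for BNAP/GRP1, GRP2/MP3 or GRP3 without batch 2. Without batch 1, 1 was called for each of the others, and for PFMP 1 was called without batch 2. Of all genes 0.0616% to 0.243% were called in these comparisons without batch 1 and 0.0579% to 0.185% without batch 2. Against the mean of the progenitors 2 were called without batch 1 or batch 2 (0.608% and 0.5% of all genes). Without batch 4 the counts were 6 for BNAP/GRP1, GRP3 and PFMP and 7 for GRP2/MP3 (1.34% to 1.46% of all genes).

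**Figure D2:**
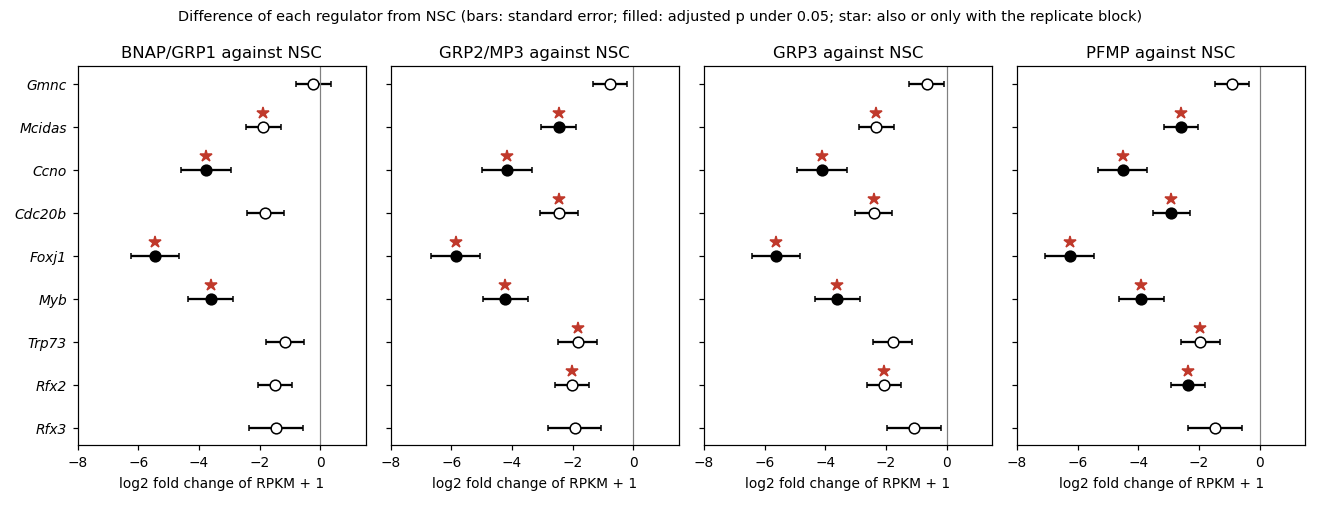
Log2 fold change of RPKM + 1 of each regulator in each progenitor against NSC, with its standard error, from 4 libraries a population; filled points passed at an adjusted p under 0.05, and a star marks those that passed with the replicate block, alone or as well. Foxj1 lies farthest to the left in all 4 panels (-5.45 to -6.27) and Gmnc nearest to 0 (-0.23 to -0.91).

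The batches gave the same direction at different sizes. Progenitors were below the NSC library of their own batch in 36 of 36 pairings of gene and progenitor in batch 1, 36 of 36 in batch 2, 35 of 36 in batch 3 and 32 of 36 in batch 4. The median log2 differences were -3.33, -2.54, -1.69 and -2.02. All 4 exceptions in batch 4 came from BNAP/GRP1 4, where Gmnc, Mcidas, Cdc20b and Trp73 were above NSC 4. The exception in batch 3 was Gmnc in GRP2/MP3 3 (0.0562 against 0.0510 RPKM). Foxj1, Ccno and Myb were lower in 16 of 16 pairings, as were 3.28% of the genes tested. Mcidas, Cdc20b and Trp73 were lower in 15 of 16 and Gmnc in 14. At least as many were reached by 6.13% and 9.06% of the genes tested. All pairings of a batch share its 1 NSC library, so they do not stand as repeats of each other. The share over all genes is not given here for single batches.

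**Figure D3:**
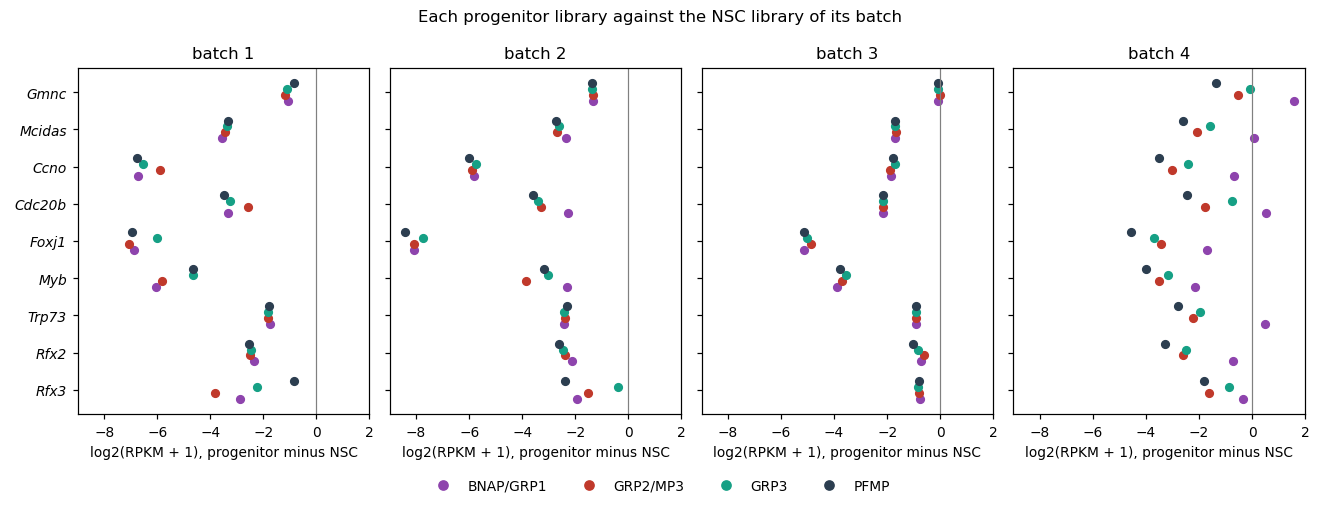
Difference in log2(RPKM + 1) between each progenitor library and the NSC library of its batch (horizontal axis) for each regulator (vertical axis), 1 panel per batch; colours mark the progenitors. Points lie to the left of 0 but for Gmnc in GRP2/MP3 3 and 4 genes in BNAP/GRP1 4.

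In NSC the regulators known to act first were not the highest in level. By mean log2(RPKM + 1) over the 4 NSC libraries it ran Foxj1 (6.46 ± 1.64, SD), Myb (5.47 ± 1.16), Ccno (5.09 ± 1.68), Rfx3 (3.32 ± 1.53), Cdc20b (2.91 ± 0.73), Mcidas (2.68 ± 0.81), Rfx2 (2.43 ± 0.95), Trp73 (2.02 ± 0.87) and Gmnc (1.00 ± 0.63). Every gene overlapped the next in range over the 4 libraries, and the differences between neighbours were not tested. An order of different genes by RPKM also depends on the gene lengths used, which are not given in the sources used here. Within single libraries Foxj1 was above Myb, Ccno above Rfx3, Rfx2 above Trp73 and Trp73 above Gmnc in 4 of 4, while Cdc20b was above Mcidas in 2 of 4. Mcidas stood at 0.0160 to 0.157 of the RPKM of Foxj1 in the same library.

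In the progenitors the order was another one. Rfx3 and Myb were the 2 highest in all 4, with Myb first in BNAP/GRP1 and Rfx3 first in the other 3, and Ccno was the third. Foxj1 was the fifth in BNAP/GRP1 and the fourth in the others. Within GRP2/MP3, GRP3 and PFMP, Ccno was above Foxj1 in 2, 1 and 2 of 4 libraries. In batch 3, the batch with airway RNA, Ccno measured 2.69, 3.25 and 2.98 RPKM in these fractions. Foxj1 measured 0.199, 0.0714 and 0.00416 RPKM in the same libraries. The part of batch 3 in the place of Ccno was not tested. Neighbours overlapped in range in all 4 progenitors. The log2 ratio of Foxj1 to Rfx3 (each with 1 RPKM added) was 3.14 ± 1.41 (SD, n = 4) in NSC, and the progenitors differed from it by -3.97, -3.92, -4.53 and -4.81, again in the order used for Foxj1. The NSC libraries, at 1.57 to 4.63, did not overlap those of any progenitor. An exact two-sided permutation test gave p = 0.0286 for each, the smallest that 70 splits of 4 against 4 allow, and 0.0571 after Benjamini-Hochberg adjustment over 8 such tests, which does not pass the threshold of 0.05. The ratio of Rfx2 to Rfx3 moved by -0.01, -0.09, -0.98 and -0.90 (exact permutation p = 1, 1, 0.314 and 0.4, adjusted p = 1, 1, 0.503 and 0.533), with overlapping ranges. With 1 RPKM added, a log2 level can fall no further than 0. The NSC means were 6.46 for Foxj1, 3.32 for Rfx3 and 2.43 for Rfx2, so Foxj1 could fall further than Rfx3 and Rfx2 less far. Neither ratio can therefore tell a difference in response between the genes apart from this bound.

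Ranks within a library do not depend on its scaling, but they do depend on its share of genes at 0. In PFMP 3, with 53.4% of genes at 0, Foxj1 at 0.00416 RPKM was at the 53.8th percentile. In GRP3 4, with 13.2% at 0, it was at the 41.9th with 1.66 RPKM. The percentile of each regulator among all genes of a library (ties given their mean rank) had a median over the 9 of 86.5, 86.4, 74.0 and 82.2 in NSC 1 to 4. The medians in the 16 progenitor libraries lay between 25.9 in PFMP 2 and 63.3 in GRP2/MP3 3, and that of BNAP/GRP1 4 was 39.2. The median in PFMP 2 was the rank shared by its genes at 0 (51.9% of all genes). GRP2/MP3 3 was the library with the most genes at 0 (56.0%). Foxj1 was at the 92.9th to 98.8th percentile in NSC and at the 41.9th to 67.9th in progenitors. Rfx3 reached the 88.5th percentile in PFMP 1 and Myb the 85.8th in BNAP/GRP1 2, the highest ranks of any regulator in a progenitor.

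**Figure D4:**
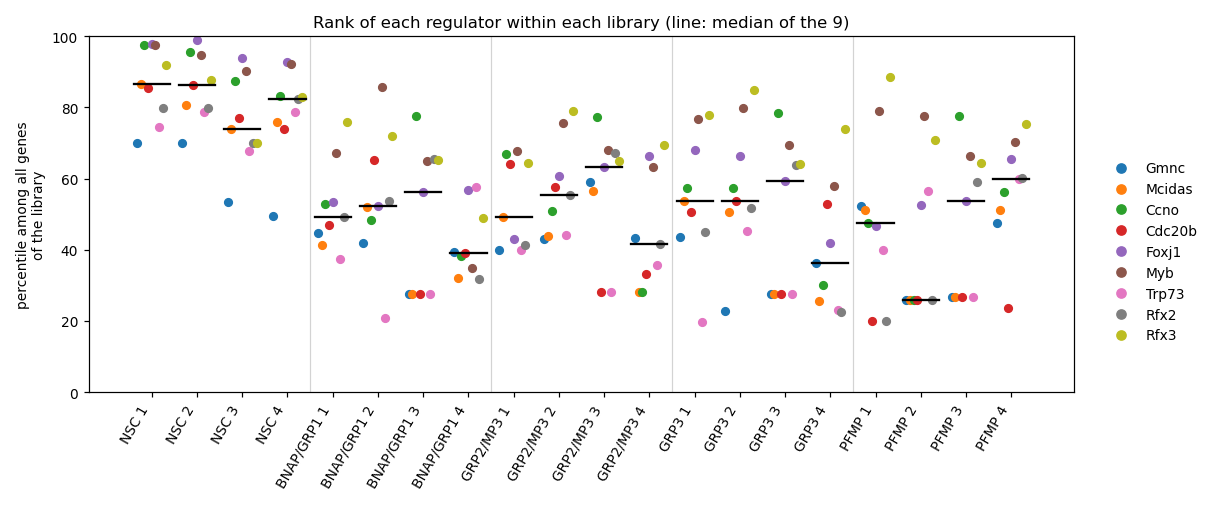
Percentile of each of the 9 regulators among all 45705 genes of a library (vertical axis), for the 20 libraries (horizontal axis), with the median of the 9 as a line; genes listed at 0 share a low rank. The medians are 74.0 to 86.5 in the NSC libraries and 25.9 to 63.3 in the progenitors.

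No regulator passed a test between progenitors. The 6 direct comparisons of the 4 populations called 0 of 9 regulators each with limma, with and without the replicate block, and 0 of 54 reached an unadjusted p under 0.05. The background was 0% in these comparisons, since no gene of the 27614 was called. The largest log2 difference was 1.10, with SEs of 0.57 to 0.89 over the 54, so differences of about this size were not detectable with 4 libraries. With library weights, 1 regulator was called in BNAP/GRP1 against GRP3. The share of all genes that this fit called there is not given here, so the call has no background beside it. Against NSC the same weights called 4.9% (PFMP) to 8.56% (GRP3) of all genes lower.

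The neighbourhood of Mcidas was examined because 3 regulators lie there. Within 250 kb on each side of its start the table held 16 genes, of which 12 were tested and 3 were called higher in NSC: Ccno, Mcidas and Cdc20b. These 3 are the regulators for which the window was chosen, so their count says nothing new about it. No other gene tested there was called. Gpx8, which lies inside Cdc20b on the opposite strand and shares no exon bases with it, measured 19.4 to 236.8 RPKM in NSC and 0.358 to 49.0 in the progenitors (2.86, adjusted p = 0.105). Dhx29 and Mtrex, upstream of Ccno, had differences of 0.18 and -0.46 and did not pass (adjusted p = 1). Cdc20b shared 197 of its 1828 exon bases with the antisense gene 4930563N14Rik.

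**Figure D5:**
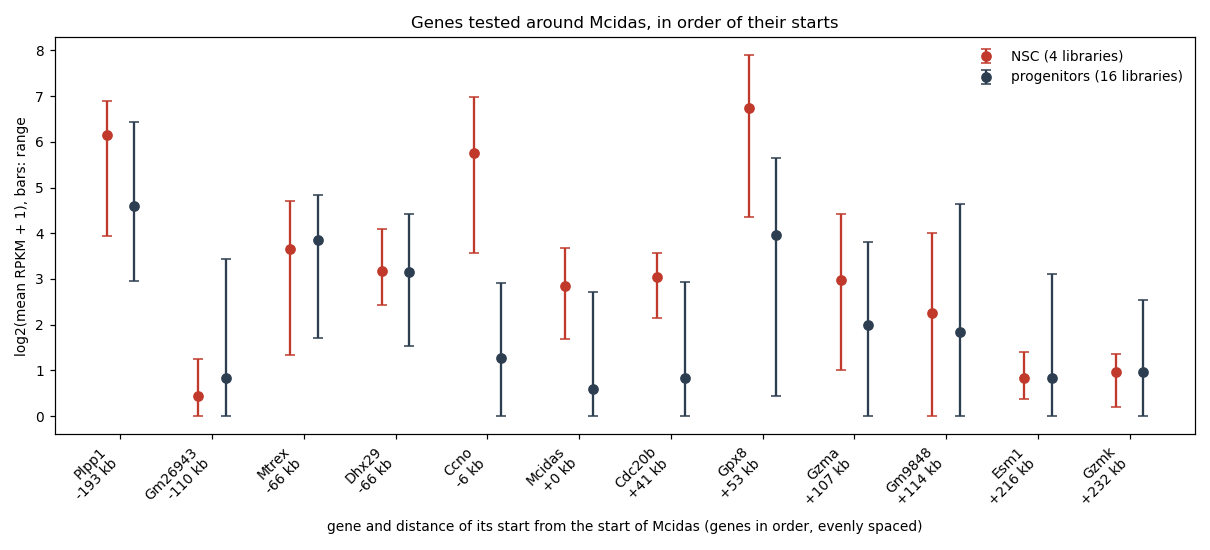
Mean RPKM with 1 added, on a log2 scale (vertical axis), of the 12 genes tested around Mcidas in the order of their starts (horizontal axis, distance in kb), for the 4 NSC and the 16 progenitor libraries; bars span the lowest to the highest library. Ccno, Mcidas and Cdc20b have NSC means of 53.1, 6.18 and 7.26 RPKM and progenitor means of 1.40, 0.517 and 0.778.

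Cdc20b spans the hairpins Mir449a, Mir449b and Mir449c. The products of Mir449a and Mir449c shown here share a seed with those of Mir34a and Mir34b. MiRNAs of this family are known to repress Ccp110, a brake on centriole growth. The mature forms are shown because of their seed (bases 2 to 8, in capitals). It joins Mir449a and Mir449c, inside Cdc20b, to Mir34a and Mir34b on other chromosomes. Of 1679 mature mouse miRNAs listed by RefSeq (GRCm38.p6), 4 hold this seed. That list holds only miR-34c-3p for Mir34c and no mature form of Mir449b. Whether the missing forms of Mir34c and Mir449b share the seed was therefore not examined.
miR-449a-5p: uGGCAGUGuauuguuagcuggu
miR-449c-5p: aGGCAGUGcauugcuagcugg
miR-34a-5p: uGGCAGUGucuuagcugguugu
miR-34b-5p: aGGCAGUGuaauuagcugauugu
The libraries were made from polyadenylated RNA and do not measure mature miRNAs. Mir449a, Mir449b and Mir34a were listed at 0 in all 20 libraries. Mir449c was listed at 18.9 RPKM in NSC 1, 65.0 in NSC 2 and 75.1 in BNAP/GRP1 4, and at 0 elsewhere. Corrected for relative depth these values stood as 1 to 8 to 1, so the value of BNAP/GRP1 4 stood for as many reads as that of NSC 1. Mir34c was listed at 69.8 RPKM in NSC 4 alone, and Mir34b at 2.49 in BNAP/GRP1 3 and 17.0 in PFMP 2.

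The partners through which Mcidas acts were measured as well, and none passed the test. Of 10 genes of the E2F4 and E2F5 complexes and of the MuvB core, 0 were called in NSC against the mean of the progenitors with limma, and 0 reached an unadjusted p under 0.05, with or without the replicate block. Their median difference was -0.19. The 2 with the largest differences were Tfdp1, the DP partner of E2F factors (-0.75 ± 0.57), and Rbl1, the p107 pocket protein (-0.73 ± 0.55). Tfdp1 measured 1.69 to 11.5 RPKM in NSC, inside the progenitor range of 1.10 to 16.1.

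Among 12 genes of centriole amplification, 2 were higher in NSC and 0 lower. Deup1, the organiser of the deuterosome (listed in the table under its older symbol), measured 28.3, 54.3, 7.27 and 68.6 RPKM in NSC 1 to 4, against a median of 0.0623 and a maximum of 8.82 in the progenitors (4.32 ± 0.67, adjusted p = 0.000473). Cetn2, a centrin of centrioles and basal bodies, measured 106.5 to 712.2 RPKM in NSC and at most 73.7 in the progenitors (3.38 ± 0.55, adjusted p = 0.000875). The groups did not overlap for Cetn2, and for Deup1 BNAP/GRP1 4 and GRP2/MP3 4 were above NSC 3. Both calls were lost without batch 2 (adjusted p = 0.0768 for Deup1 and 0.0974 for Cetn2). Plk4, Sass6 and Stil, which centrioles of dividing cells need as well, differed by 0.50, -0.06 and 0.47 and did not pass. Ccdc78 passed with the replicate block alone (2.55, adjusted p = 0.118 without it and 0.00281 with it).

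Of 10 cell cycle genes, 1 was called. Ccna1 (cyclin A1) measured 307.6, 362.3, 38.7 and 130.6 RPKM in NSC 1 to 4 and between 0 and 9.31 in the progenitors, with no overlap (6.50 ± 0.62, adjusted p = 2.52e-06). Mki67, a marker of cycling cells, pointed the other way at 0.436, 0.640, 2.66 and 1.44 RPKM in NSC 1 to 4, all below the lowest progenitor library at 2.75. It differed by -1.57 ± 0.46, which did not pass (adjusted p = 0.105, and 0.0274 with the replicate block). Cdk1 and Top2a differed by 0.86 and 0.31 and did not pass.

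None of the paralogues of the regulators passed. Of 12 relatives, 0 were called with limma, 2 were higher at an unadjusted p under 0.05 (Rfx1 and Rfx4), and Rfx4 passed with the replicate block (adjusted p = 0.0252). Of all 27614 genes, 1898 reached an unadjusted p under 0.05 in either direction. Rfx4, an RFX factor of the developing brain, measured 37.7, 13.1, 1.60 and 64.5 RPKM in NSC 1 to 4 and 0.0126 to 22.5 in the progenitors (1.93 ± 0.88, adjusted p = 0.634). Rfx1 differed by 1.23, and Rfx5 and Rfx7 by -0.51 and -0.74. Mybl1 and Mybl2 differed by -0.38 and 0.32, Trp53 and Trp63 by -0.57 and 0.61, and Foxj2 and Foxj3 by -0.46 and -0.32. Gmnn (geminin, the relative of Gmnc and Mcidas that limits DNA replication) differed by -0.72 and Cdc20 by 0.49.

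Genes of the motile cilium and of ependymal cells were higher in NSC as well. Of 12 motile cilium genes, 8 were called higher in NSC and 0 lower, with a median difference of 4.83. The sum of the 12 was 1877, 6346, 497.7 and 2718 RPKM in NSC 1 to 4 and 5.85 to 114.2 in the progenitors. Rsph1, a radial spoke protein, had the largest difference (7.71 ± 0.61, adjusted p = 4.07e-07), followed by Ccdc113 (7.46 ± 0.58, adjusted p = 4.07e-07). Tppp3, Cfap126, Pifo and Tekt4 had differences of 5.30 to 6.58.

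Of 6 ependymal markers outside the cilium, 5 were called, all but Cd24a (adjusted p = 0.451, and 0.0258 with the replicate block). Their sum was 2400, 4455, 560.0 and 3845 RPKM in NSC 1 to 4 and 51.7 to 613.1 in the progenitors, where GRP2/MP3 4 was the highest. Calml4 differed by 6.30, Mia by 6.18, Rarres2 by 6.29, Tm4sf1 by 6.65 and Ezr by 3.09, the last with an adjusted p of 0.0349 that was lost in 14 of 35 alternatives, among them those without NSC 1, NSC 2 or NSC 4. The call of Rarres2 was lost without batch 1 or batch 2. NSC 3 was the lowest of the NSC libraries in both sums, as it was in 7 of the 9 regulators. The part of such cells in the levels of the regulators was not tested.

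Other cell types were checked by their markers, in NSC against the mean of the progenitors. Of 8 choroid plexus genes, 6 were tested and 2 were higher in NSC, Folr1 (3.64, adjusted p = 0.0143) and Otx2 (2.87, adjusted p = 0.0121), while the defining Ttr lay at 0 to 2.84 RPKM in NSC. Without NSC 1 or NSC 2 neither passed. Of 5 OPC, 8 microglia, 6 neuroblast, 9 airway and lung, and 4 tested genes of immature blood cells, which use Myb as well, 0 were called, with 3, 1, 0, 0 and 0 at an unadjusted p under 0.05. With the replicate block 4 of the choroid plexus genes were called, and 2 of the OPC genes (Olig1 and Pdgfra) were called lower in NSC. Against NSC, single progenitors gave other counts. All 8 microglia genes were higher in GRP2/MP3 than in NSC at an unadjusted p under 0.05, and 5 of 8 in BNAP/GRP1, and all 5 OPC genes were higher in GRP3 and in PFMP. None of these was called with limma, and with the replicate block 3 microglia genes were called in GRP2/MP3 and 4 OPC genes each in GRP3 and PFMP. Of all 27614 genes, 1629, 1600, 1552 and 1623 reached an unadjusted p under 0.05 in either direction, in the order used for Foxj1. Against the mean of the progenitors 1898 did. The block called 48, 76 and 51 genes higher than NSC in GRP2/MP3, GRP3 and PFMP, and 1143 higher and 62 lower in NSC than the mean. Choroid plexus genes were lower than in NSC at an unadjusted p under 0.05 in each progenitor (4, 4, 3 and 3 of 6 in the order used for Foxj1), with 1 called, in PFMP. The part of these cells in the differences of the regulators was not tested.

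Levels of the regulators were correlated across libraries. Pearson's r of log2(RPKM + 1) over the 20 libraries ran from 0.377 to 0.962 for the 36 pairs of regulators, with a median of 0.796. Over the 14 libraries without batch 3 and BNAP/GRP1 4 it ran from 0.601 to 0.985, with a median of 0.869. These libraries share populations and batches, so r describes this set only. The 5 genes most like Foxj1 over the 20 libraries were Fam92b (r = 0.991), Gm12144 (0.991), Crip3 (0.989), Dnali1 (0.986) and Fam216b (0.985). Dnali1 is an axonemal dynein light chain. The 5 most like Mcidas were 1700066J03Rik (0.983), Ttc29 (0.983), Nhlrc4 (0.979), Scnn1a (0.976) and Cfap70 (0.976). Fam92b measured 19.8 to 228.3 RPKM in NSC and at most 7.63 in the progenitors.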

How the data were processed

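The authors deposited RPKM values for 45705 genes in 20 libraries of sorted cells, 4 from each of 5 populations. Per the labels, RNA was amplified from polyA RNA and sequenced on a NextSeq500. The submitters' processing notes name FastQC 0.11.9, cutadapt 3.4, STAR 2.6.1, Salmon 1.9.0, DESeq2 1.26.0 and GRCm38. The gene lengths and totals behind the RPKM are not given in the sources used here, and 26 empty columns were not used.

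For each test 1 was added to the RPKM and the log2 taken. The genes that reached 1 RPKM in 4 libraries entered limma 3.58.1 in R 4.3.3 (lmFit, then eBayes with a trended prior), with a mean per population, no batch term and all 20 libraries. The authors' count test could not be used on RPKM. P-values were adjusted by Benjamini-Hochberg over all genes tested, and 0.05 was the threshold. The 2 ratios of genes were tested by exact permutation (scipy 1.17.1). Relative depth and read numbers were recovered from low values, which are whole multiples of what 1 read is worth. Reads could not be recovered for Myb. P-values of the main fit measure the spread between libraries of a population, which includes differences between batches since the fit has no batch term. The scripts were tested on simulated data.

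Batch labels pair the libraries. After population means were removed, the median correlation was 0.337, 0.262, 0.769 and 0.581 within batches 1 to 4 and -0.254 between batches. The replicate block was an alternative, as were a pseudocount of 0.1, other filters (none, or a mean of 5 RPKM), quantile normalization, scaling by median of ratios, an untrended prior, library weights (statmod 1.5.0), fits of the compared populations alone and left-out libraries and batches. Leaving out batch 3 with BNAP/GRP1 4, and batches 1 and 2 alone, were chosen after seeing the data.

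The 9 members and all marker lists were chosen with earlier results of these data known. Genes named are the members, their relatives, the Mir34 and Mir449 genes, list genes that passed or had the 2 largest differences, the 5 genes most like Foxj1 and Mcidas, and, chosen after their values were seen, neighbours of Mcidas and a few list genes named for contrast. Figures used Python 3.11.15 and matplotlib 3.10.9.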

Additional observations from a re-analysis of the deposited data

Results flagged for a closer look

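In each of 44 groups (9 regulators in 5 populations, without Cdc20b in PFMP, where all 4 libraries were at 0) the highest or lowest of the 4 libraries was compared with the rest by Dixon's ratio, the gap to the nearest library over the whole range, and 14 passed the critical value of 0.829, where chance passes about 1 in 20. Of these, 5 were the library BNAP/GRP1 4, with ratios of 0.956 for Gmnc, 0.860 for Mcidas, 0.889 for Foxj1, 0.983 for Trp73 and 0.893 for Rfx2. Another 5 were libraries of batch 4 in other progenitors: Gmnc (0.920) and Trp73 (0.954) in GRP2/MP3 4, and Gmnc (0.934), Cdc20b (0.865) and Trp73 (0.979) in GRP3 4. In these batch 4 libraries 13.2% to 16.5% of all genes were at 0, and in batches 1 to 3 between 30.0% and 56.0%. PFMP 1 stood above the other PFMP libraries in Gmnc (0.989, 0.293 against 0.00292 RPKM) and in Mcidas (0.955, 0.267 against 0.0106 RPKM). NSC 3 stood below the other NSC libraries in Gmnc (0.869, 0.0510 against 1.30 RPKM). PFMP 3, of the batch with airway RNA, stood above the others in Ccno (0.884, 2.98 against 0.173 RPKM).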

How the results depend on the processing

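With the replicate block the numbers of regulators called in BNAP/GRP1, GRP2/MP3, GRP3, PFMP and against the mean of the progenitors were 4, 7, 6, 7 and 7, against 3, 4, 3, 6 and 6 without it. In the same order they were 1, 2, 1, 6 and 6 with a pseudocount of 0.1 (0.272% to 1.59% of all genes), 3, 6, 6, 6 and 7 with median-of-ratios scaling (1.06% to 2.41%), 7, 7, 7, 7 and 8 with quantile normalization, and 9, 8, 8, 8 and 9 with library weights, which also called 6.97%, 5.76%, 8.56%, 4.9% and 8.09% of all genes in these directions. The stricter filter gave 3, 3, 3, 3 and 3 (1.66% to 3.23% of the 12850 genes it kept), since it kept fewer members. Fits of the compared populations alone gave 1, 2, 1 and 1 (0.217% to 0.406% of all genes). Batches 1 and 2 alone gave 8, 8, 7, 7 and 8 (3.86% to 5.68% of all genes), and batch 3 with BNAP/GRP1 4 left out gave 6, 7, 7, 7 and 7, the same with the block (2.11% to 4.83% of all genes with it). Without a filter Ccno lost its call in BNAP/GRP1, Mcidas in GRP2/MP3 and PFMP, and Rfx2 in PFMP. Of all genes 0.319% to 0.512% were then called lower in the 4 progenitors. With 1 library or 1 batch left out the counts ranged from 0 to 7, 0 to 7, 0 to 7, 1 to 7 and 2 to 7; the lowest came without batch 1 or batch 2. In the direct comparisons the counts stayed 0 but for 1 in BNAP/GRP1 against GRP3 with library weights, for which the share of all genes is not given here. Foxj1 against the mean of the progenitors passed under each alternative run (adjusted p at most 0.00415), with a log2 difference of 5.04 to 7.58, and so did Myb (at most 0.0428).

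Against NSC, the log2 ratio of Rfx2 to Rfx3 changed sign when libraries were left out, since it lay near 0. In BNAP/GRP1 it ranged from -0.45 (without NSC 1) to 0.27 (without NSC 3) and was 0.25, 0.25, 0.16, 0.05 and 0.11 without NSC 4, BNAP/GRP1 1, BNAP/GRP1 2, batch 2 or batch 4. In GRP2/MP3 it ranged from -0.56 (without batch 1) to 0.28 (without GRP2/MP3 2) and was 0.19, 0.17, 0.17 and 0.21 without NSC 3, NSC 4, batch 2 or batch 4. The log2 fold change of Gmnc in BNAP/GRP1 ranged from -0.95 (without BNAP/GRP1 4) to 0.14 with libraries left out, was -1.33 with a pseudocount of 0.1, and was above 0 without batch 1 (0.05), batch 2 (0.14), BNAP/GRP1 2 (0.02) or BNAP/GRP1 3 (0.03). Of the values of single genes under alternatives, 1936 kept their direction and side of the threshold, 152 lost the call, 124 gained it and 4 changed sign. Causes were not tested. Values near 0 RPKM rest on few reads in shallow libraries, and 3 reads of Cdc20b were 1.82 RPKM in BNAP/GRP1 4.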
